A study of Mus musculus with 11 samples.

Results

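The 8 genes described here encode proteins that neutrophils and their precursors store in granules or in the cytosol. They are Mpo, Elane, Prtn3, Ctsg, S100a8, S100a9, Ltf and Camp. They were taken by name, as the rows of a gene-level expression table whose Ensembl IDs map to these symbols, with no threshold on their expression. All 8 were found among 37820 gene IDs, and all 8 were among the 14708 genes tested. Elane passed the filter through the FL HSCs and both BM libraries, and Ctsg and Camp through the FL HSCs and 1 BM library each. Ltf passed through the FL HSCs alone, so that its place among the tested genes depends on the population in which it is high.

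The table covers 11 RNA-seq libraries of mouse cells from 5 sorted populations along the path to the hematopoietic stem cell (HSC). Endo (n = 2) were CD31+ endothelial cells of the major arteries at E10.5 that lacked GFP, Kit, CD45 and CD41, and hemogenic endothelium, HE (n = 2), were the GFP+ and Kit low or negative cells of the same sort, both from embryos with a GFP reporter in the Runx1 locus. Pre-HSCs (n = 3) were arterial cells positive for CD31, CD144, ESAM, Kit and a Ly6a:GFP transgene, which is driven by Ly6a (Sca-1) regulatory sequences, at E11.5 by the paper and E10.5 by the sample labels. FL HSCs (n = 2) were Lin- Sca1+ Kit+ CD150+ CD48- cells of the E14.5 fetal liver. BM HSCs (n = 2) were Lin- Sca1+ Kit+ CD150+ CD48- cells of the bone marrow of mice 6 to 8 weeks old. They were gated further as CD135- by the methods and as CD34- by the sort table. The lineage cocktails of the fetal liver and bone marrow sorts held Gr-1 and CD11b, antibodies against the surface of granulocytes and monocytes, whereas the pre-HSC sort had neither a lineage nor a CD45 gate. The labels give the strain B6129SF1 throughout, while the paper gives other crosses for several populations, so that strain and population cannot be told apart. Cells were pooled from several embryos or mice.

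Granulocytes make their granules in sequence. Azurophil granules, which hold myeloperoxidase and the serine proteases elastase, proteinase 3 and cathepsin G, are filled first, at the promyelocyte stage. Specific granules, which hold lactoferrin and the cathelicidin precursor, are filled later, and the S100A8 and S100A9 proteins accumulate in the cytosol. Transcripts of several azurophil proteins, Mpo foremost, are also known from progenitors that have not yet committed to the granulocyte lineage.

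Several of these genes lie in pairs. On mm9 (NCBIM37), Prtn3 lies at chr10:79337221-79345919 and Elane at chr10:79349057-79350961, both on the plus strand with 3138 bases between them. S100a8 (chr3:90472993-90473956, plus strand) and S100a9 (chr3:90496554-90499643, minus strand) are 22598 bases apart. No protein-coding gene lies between the members of either pair. Camp (chr9:109749889-109751970, minus strand) and Ltf (chr9:110921796-110945270, plus strand) share a chromosome, with 31 protein-coding genes between them. Mpo lies at chr11:87607083-87617915 on the plus strand and Ctsg at chr14:56718718-56721411 on the minus strand.

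The bases before the start of 5 members are shown, namely both neighboring pairs and a further serine protease, Ctsg. All 8 members were at their highest in FL HSCs, so that level does not set these 5 apart. The sequences are from the RefSeq promoter table (GRCm38.p6), which matched 8 of 8 members. They were placed on NCBIM37 by a unique exact match, at chr10:79348807-79349056 (plus strand) for Elane, chr10:79342162-79342358 (plus) for Prtn3, chr14:56721412-56721661 (minus) for Ctsg, chr3:90472743-90472992 (plus) for S100a8 and chr3:90499644-90499893 (minus) for S100a9. Each run is the 250 bases before the RefSeq start, read 5′ to 3′, and that of Prtn3 was ended where an annotated exon begins. The RefSeq start of Prtn3 lies 5191 bases downstream of the annotated gene start given above, so its run lies inside the gene as annotated. For Mpo, not shown, only 47 of the 250 bases lie outside its own annotated exon. Capitals mark matches on either strand to the ETS motif (GAGGAA), the C/EBP motif (TTNNGNAA) and the RUNX motif (TGTGGT).
Elane: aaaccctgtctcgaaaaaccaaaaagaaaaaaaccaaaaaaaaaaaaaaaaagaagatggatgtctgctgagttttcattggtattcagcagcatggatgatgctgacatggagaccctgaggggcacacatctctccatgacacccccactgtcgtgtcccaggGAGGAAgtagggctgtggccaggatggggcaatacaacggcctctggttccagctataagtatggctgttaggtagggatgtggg
Prtn3: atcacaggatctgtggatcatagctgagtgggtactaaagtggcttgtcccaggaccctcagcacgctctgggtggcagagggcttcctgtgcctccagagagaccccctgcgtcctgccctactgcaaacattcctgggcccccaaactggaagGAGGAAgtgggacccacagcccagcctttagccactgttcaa
Ctsg: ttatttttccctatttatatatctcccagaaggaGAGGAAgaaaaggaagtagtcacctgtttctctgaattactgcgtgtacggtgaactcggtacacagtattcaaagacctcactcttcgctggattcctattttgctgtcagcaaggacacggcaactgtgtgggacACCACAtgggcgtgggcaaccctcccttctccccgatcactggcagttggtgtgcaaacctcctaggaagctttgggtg
S100a8: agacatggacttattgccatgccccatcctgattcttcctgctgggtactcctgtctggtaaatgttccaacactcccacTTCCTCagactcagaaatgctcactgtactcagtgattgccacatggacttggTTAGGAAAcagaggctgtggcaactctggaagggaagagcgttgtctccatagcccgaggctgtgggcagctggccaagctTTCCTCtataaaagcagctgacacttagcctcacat
S100a9: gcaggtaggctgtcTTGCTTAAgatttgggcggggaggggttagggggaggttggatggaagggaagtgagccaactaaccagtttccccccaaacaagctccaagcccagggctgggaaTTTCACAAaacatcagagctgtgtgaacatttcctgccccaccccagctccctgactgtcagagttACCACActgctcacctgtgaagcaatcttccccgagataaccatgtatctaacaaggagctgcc
The ETS motif was in the 250 bases before the start of 6 of 8 members, Mpo, Elane, Prtn3, Ctsg, S100a8 and Ltf, against 23.3% of 32851 promoters. In the neighbors Elane and Prtn3 it was on the same strand, at 85 to 80 and at 95 to 90 bases before the start. The C/EBP motif was in 3 of 8 members (S100a8, S100a9 and Ltf), against 36.8% of promoters, and the RUNX motif in 2 of 8 (Ctsg and S100a9), against 14.0%. The short MYB motif (AACNG), not marked above, was in 8 of 8 members and in 74.2% of promoters. Camp held no match to the ETS, C/EBP or RUNX letters. These are matches of letters in a window and not measured binding.

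Expression is given as FPKM, fragments per kilobase of transcript normalized to the mapped reads of the library, which sets genes of different length on a common scale. Changes are on the log2(FPKM + 1) scale, first population minus second, where the added 1 shrinks the change of a gene with few reads. A gene was called changed when limma's moderated F test over the 5 populations stayed under an adjusted p of 0.01 and the contrast of interest under 0.05, with at least a 2-fold change. FPKM totals ran from 569851 to 789161 per library, and replicates of a population correlated at Pearson r of 0.958 to 0.978 over the tested genes. An exact 0 may be a failed estimate rather than silence. Prpf8, a core splicing gene, is listed at 0 in 1 pre-HSC library (replicate 3) and had 36.0 FPKM or more in every other library. No fold is therefore given against a population listed at 0. Scaling all libraries to equal totals moved the median change of all tested genes by 0.13 for pre-HSCs against HE, by -0.20 for FL HSCs against pre-HSCs and by -0.10 for BM HSCs against pre-HSCs.

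All 8 members had their highest mean level in FL HSCs. Their summed FPKM was 2.10 and 1.77 in Endo, 3.67 and 3.49 in HE, 30.2, 41.0 and 45.4 in the pre-HSC libraries, 609 and 504 in FL HSCs, with 106 and 99.7 in BM HSCs. The sum was thus higher in each later population up to the fetal liver and lower again in bone marrow, with no overlap between populations. The FL libraries had 8 of 8 members at 1 FPKM or more, against 2 to 4 in the pre-HSC libraries. In bulk RNA, more cells that express a gene and more RNA per cell cannot be told apart.

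**Figure D1:**
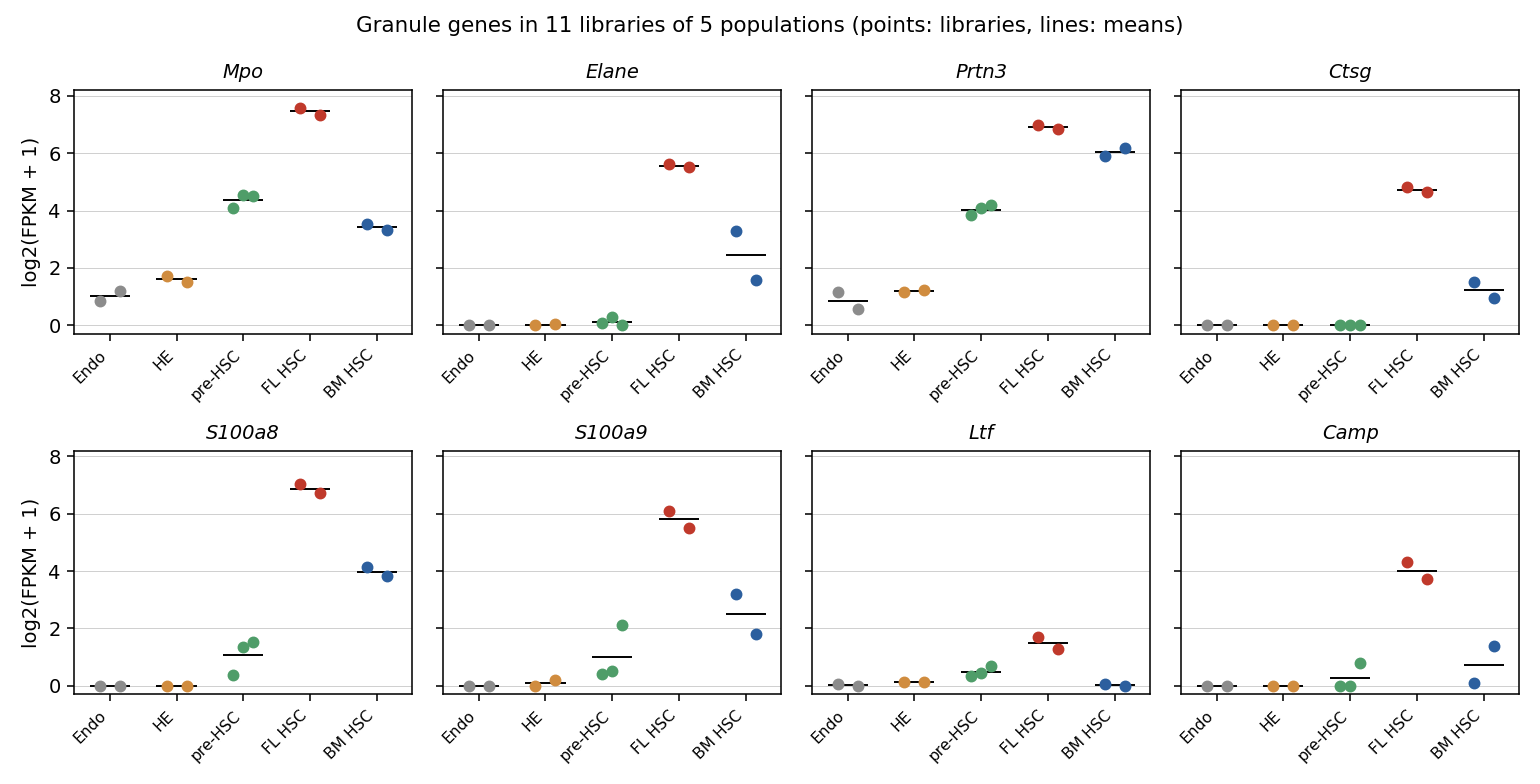
Level of each granule gene on the log2(FPKM + 1) scale (vertical axis) by population, in developmental order from Endo on the left to BM HSC on the right (horizontal axis). Each point is a library and each line the mean of a population, and all 8 genes are highest in both FL libraries, from 1.42 FPKM for Ltf up to 190 FPKM for Mpo.

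Between HE and Endo, none of the 8 members was called by limma, where 0.129% of all tested genes were called in either direction. Mpo alone had an unadjusted p under 0.05, with a log2 change of 0.60 (SE 0.21, limma's adjusted p = 0.439). At the next step, pre-HSCs against HE, 3 of 8 members rose, where 6.98% of all tested genes rose. FL HSCs against pre-HSCs had 8 of 8 members higher, where 11.1% of tested genes were called higher, although Ltf and to a lesser degree Ctsg and Camp could be tested only because of the FL libraries. BM HSCs against FL HSCs had 7 of 8 members lower, where 4.07% were called lower, and the same dependence on the FL libraries holds for Ltf, Ctsg and Camp, all 3 among the 7. Over the whole span from pre-HSCs to BM HSCs, 5 of 8 members were called higher, where 14.3% were. The median change of the 8 members was 0.05, 0.63, 4.24, -3.20 and 1.36 in these 5 comparisons in the order given, while that of all tested genes was 0.03, 0.09, 0.11, 0 and 0.10. The comparisons share libraries: those of FL HSCs serve in 2 of them, and those of pre-HSCs in 3.

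**Figure D2:**
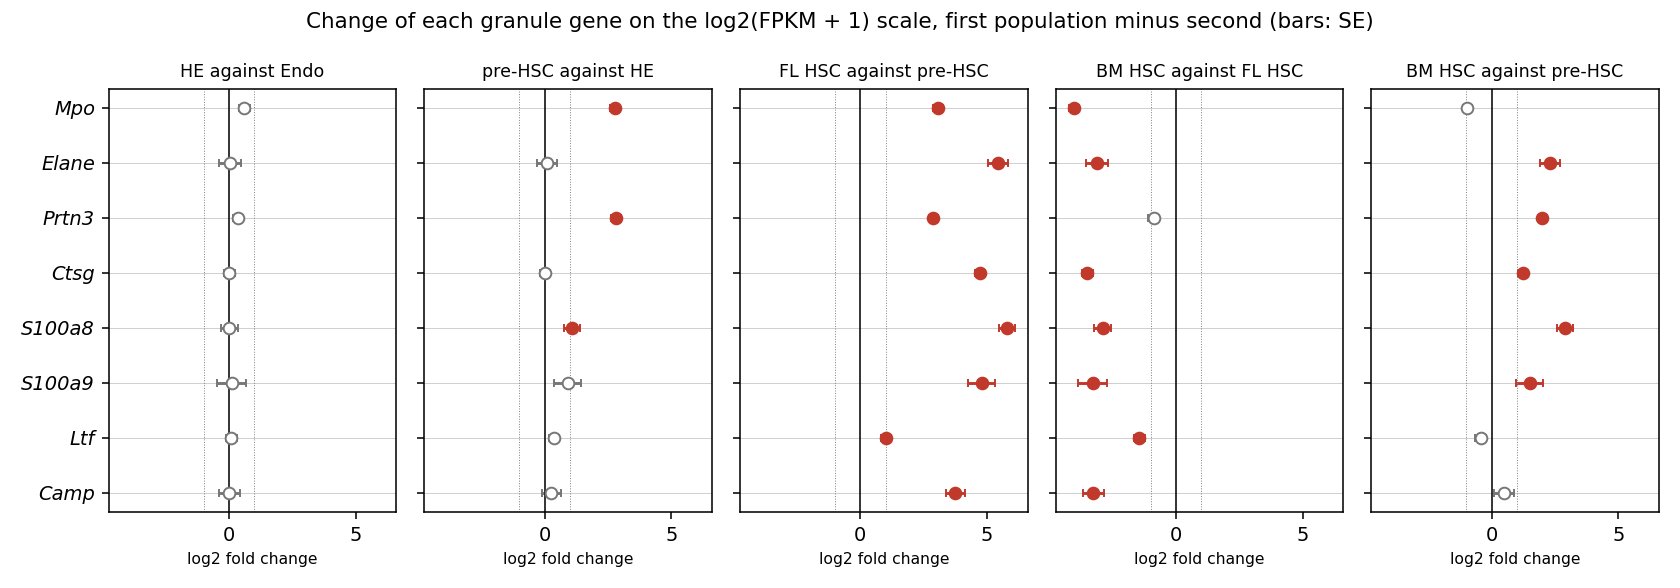
Change of each granule gene (rows) on the log2(FPKM + 1) scale (horizontal axis) in 5 comparisons, first population minus second. Points are limma's estimates with bars of 1 SE, filled where called, and dotted lines mark a 2-fold change. The 8 genes all lie to the right of 1 in FL HSCs against pre-HSCs, from 1.01 for Ltf to 5.78 for S100a8, and 7 of 8 lie to the left of -1 in BM HSCs against FL HSCs.

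Mpo, the heme peroxidase that makes hypochlorous acid in azurophil granules, was the most abundant member in FL HSCs. It was at 0.822 and 1.29 FPKM in Endo, 2.32 and 1.86 in HE, 15.9, 22.6 and 21.7 in the pre-HSC libraries, 190 and 160 in FL HSCs, with 10.6 and 8.89 in BM HSCs. No 2 populations overlapped, and the order from high to low was FL HSCs, pre-HSCs, BM HSCs, HE and Endo. In FL HSCs it ranked 564 and 582 among all gene IDs by FPKM. Mpo rose in pre-HSCs, to 20.1 ± 3.60 FPKM (SD, n = 3), against 2.09 ± 0.33 in HE (SD, n = 2), with a log2 change of 2.76 (SE 0.19, limma's adjusted p = 5.548e-05). It rose again in FL HSCs, to 175 ± 21.2 FPKM (SD, n = 2), with a log2 change of 3.07 against pre-HSCs (SE 0.19, limma's adjusted p = 1.382e-06). In BM HSCs Mpo fell by 4.03 on the log2 scale against FL HSCs (SE 0.21, limma's adjusted p = 5.353e-06). Its level in BM HSCs, 9.76 ± 1.23 FPKM (SD, n = 2), was below that in pre-HSCs, with a ratio of means of 0.487 and a change on the log2(FPKM + 1) scale just short of the 2-fold limit (-0.96, SE 0.19, limma's adjusted p = 0.00245), although Mpo was called lower without pre-HSC replicate 1 (-1.11) or without BM replicate 1 (-1.07). HE and Endo, the neighbors at the low end of the order, did not differ beyond the limits of the call.

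Prtn3 encodes proteinase 3, an azurophil serine protease, and was the one member that stayed high in bone marrow. It was at 1.23 and 0.480 FPKM in Endo, 1.26 and 1.36 in HE, 13.3, 15.9 and 17.2 in the pre-HSC libraries, 127 and 114 in FL HSCs, with 59.4 and 70.8 in BM HSCs. Up to the fetal liver it kept pace with Mpo, and in bone marrow it was the most abundant member. Prtn3 rose by 2.83 on the log2 scale in pre-HSCs against HE (SE 0.20, limma's adjusted p = 5.492e-05) and by 2.89 in FL HSCs against pre-HSCs (SE 0.20, limma's adjusted p = 2.124e-06). Between BM and FL HSCs its mean was 65.1 ± 8.04 FPKM in BM HSCs and 120 ± 9.35 in FL HSCs (SD, n = 2 each), a log2 change of -0.88 that was under 2-fold (SE 0.21, limma's adjusted p = 0.0169). Without BM replicate 2 this change was -1.003 and was called. BM HSCs were above pre-HSCs with a log2 change of 2.01 (SE 0.20, limma's adjusted p = 2.171e-05).

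Elane encodes neutrophil elastase, a serine protease of the same granules, and lies next to Prtn3. Its levels were very different from those of its neighbor outside the fetal liver. Elane was listed at 0 in both Endo libraries, at 0 and 0.0319 FPKM in HE, at 0.0675, 0.222 and 0 in pre-HSCs, at 48.3 and 44.4 in FL HSCs, while the BM libraries had 8.81 and 1.99. All 7 libraries of embryonic arteries were near 0, the FL libraries were close to each other, and the BM libraries were 4.42-fold apart. Elane was higher in FL HSCs than in pre-HSCs by 5.44 on the log2(FPKM + 1) scale (SE 0.40, limma's adjusted p = 3.545e-06). In BM HSCs it fell by 3.13 on the log2 scale against FL HSCs (SE 0.43, limma's adjusted p = 0.00122), and lay above pre-HSCs by 2.31 (SE 0.40, limma's adjusted p = 0.000881). The change in BM HSCs against FL HSCs was -2.27 without BM replicate 2 and -3.98 without BM replicate 1, and that in BM HSCs against pre-HSCs 3.17 and 1.45, all of them called.

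Ctsg encodes cathepsin G, another serine protease of azurophil granules. It was listed at 0 in the 2 Endo, 2 HE and 3 pre-HSC libraries, and was at 27.0 and 24.1 FPKM in FL HSCs, with 1.84 and 0.934 in BM HSCs. The FL libraries therefore stood clear of all other libraries. Ctsg was higher in FL HSCs than in pre-HSCs by 4.73 on the log2(FPKM + 1) scale (SE 0.20, limma's adjusted p = 1.213e-07), and fell by 3.50 in BM HSCs against FL HSCs (SE 0.22, limma's adjusted p = 2.014e-05). BM HSCs were above pre-HSCs by 1.23 (SE 0.20, limma's adjusted p = 0.000689), which became 0.95 and was no longer called without BM replicate 1.

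The proportions among the azurophil genes differed between populations. The ratio of Mpo to Prtn3 in FPKM was 1.20, 1.42 and 1.26 in the pre-HSC libraries, 1.50 and 1.41 in FL HSCs, with 0.179 and 0.126 in BM HSCs. Mpo thus led Prtn3 in every pre-HSC and FL library and was well below it in both BM libraries. The ratio of Elane to Prtn3 was at most 0.0139 in the pre-HSC libraries, 0.381 and 0.390 in FL HSCs, with 0.148 and 0.0282 in BM HSCs. Ctsg kept a ratio to Elane of 0.560 and 0.543 in FL HSCs, and had 0.210 and 0.468 in BM HSCs. These ratios are descriptions of single libraries and were not tested.

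**Figure D3:**
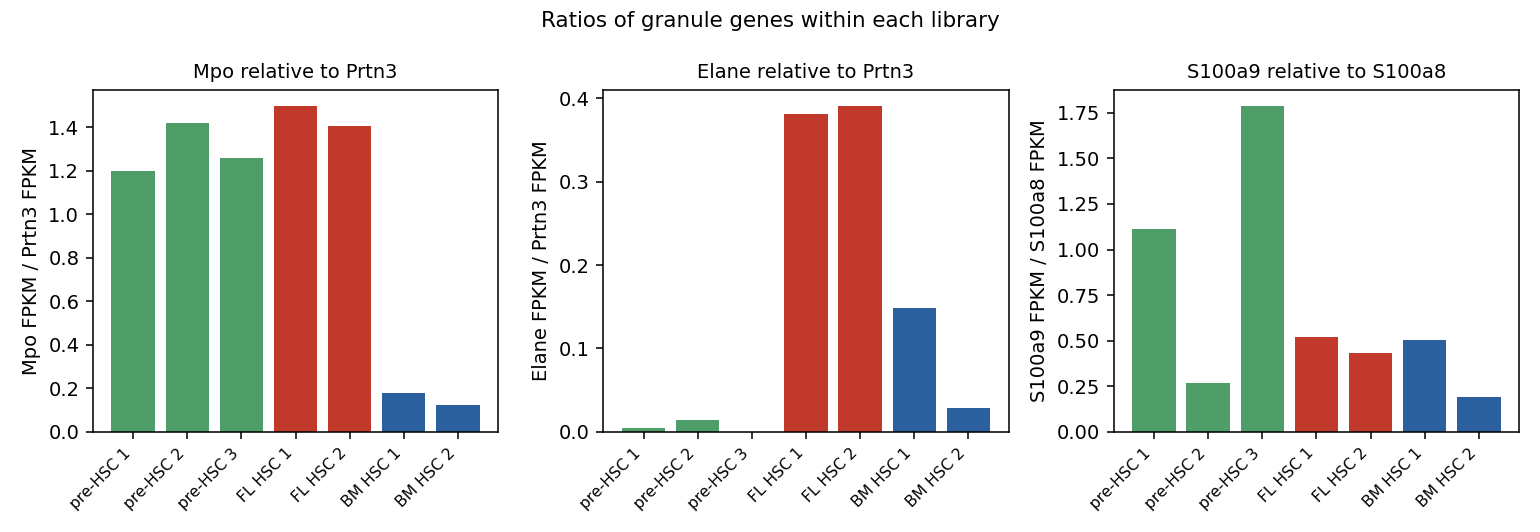
Ratio of FPKM values of gene pairs (vertical axes, from 0) within each pre-HSC, FL HSC and BM HSC library (horizontal axis). Mpo exceeds Prtn3 in pre-HSCs and FL HSCs, at 1.20 to 1.50, and not in BM HSCs, at 0.126 and 0.179, while Elane is above 0.38 of Prtn3 in the FL libraries only, and S100a9 relative to S100a8 varies most among the pre-HSC libraries.

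S100a8 and S100a9 encode the subunits of calprotectin, a calcium-binding complex of the neutrophil cytosol that withholds zinc and manganese from microbes. S100a8 was listed at 0 in all Endo and HE libraries and was at 0.307, 1.55 and 1.85 FPKM in the pre-HSC libraries, 129 and 104 in FL HSCs, with 16.5 and 13.04 in BM HSCs. In the fetal liver it was thus about as abundant as Prtn3. It was higher in pre-HSCs than in HE by 1.08 on the log2(FPKM + 1) scale (SE 0.31, limma's adjusted p = 0.029), a call that was lost without HE replicate 1 (adjusted p = 0.145), HE replicate 2 (0.093), pre-HSC replicate 2 (0.082) or pre-HSC replicate 3 (0.073). S100a8 was then higher in FL HSCs than in pre-HSCs by 5.78 on the same scale (SE 0.31, limma's adjusted p = 4.678e-07), or a 94.2-fold ratio of means. It fell by 2.90 on the log2 scale in BM HSCs against FL HSCs (SE 0.34, limma's adjusted p = 0.000536) and was above pre-HSCs there by 2.89 (SE 0.31, limma's adjusted p = 4.16e-05).

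S100a9 was below S100a8 in every FL and BM library, and above it in pre-HSC replicates 1 and 3. It was listed at 0 in Endo and was at 0 and 0.148 FPKM in HE, 0.342, 0.420 and 3.30 in the pre-HSC libraries, 67.1 and 44.8 in FL HSCs, with 8.28 and 2.48 in BM HSCs. Pre-HSC replicate 3 was above 1 of the 2 BM libraries, so that these populations overlapped. The log2 change of S100a9 was 0.91 in pre-HSCs against HE (SE 0.53, limma's adjusted p = 0.222), which was not called, and 4.79 in FL HSCs against pre-HSCs (SE 0.53, limma's adjusted p = 5.914e-05). It fell by 3.30 in BM HSCs against FL HSCs (SE 0.58, limma's adjusted p = 0.004). The change of S100a9 in BM HSCs against pre-HSCs was 1.49 (SE 0.53, limma's adjusted p = 0.038). This last call was lost on leaving out Endo replicate 1 or 2 (adjusted p = 0.055 each), HE replicate 1 or 2 (0.052 each), pre-HSC replicate 1 (0.111), pre-HSC replicate 2 (0.103) or BM replicate 1, where the change was 0.79 (adjusted p = 0.313). The ratio of S100a9 to S100a8 was 1.11, 0.271 and 1.79 in the pre-HSC libraries, 0.521 and 0.431 in FL HSCs, with 0.501 and 0.190 in BM HSCs.

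Camp, the precursor of the cathelicidin peptide of specific granules, was listed at 0 in all Endo and HE libraries and in 2 pre-HSC libraries, and was at 0.720 FPKM in pre-HSC replicate 3. It reached 18.8 and 12.2 FPKM in FL HSCs and was at 0.0761 and 1.60 in BM HSCs. Only the FL libraries stood apart, since the BM and pre-HSC libraries overlapped. Camp was higher in FL HSCs than in pre-HSCs by 3.75 on the log2(FPKM + 1) scale (SE 0.38, limma's adjusted p = 3.416e-05) and fell by 3.27 in BM HSCs against FL HSCs (SE 0.42, limma's adjusted p = 0.000832). Its difference between BM HSCs and pre-HSCs, 0.48 (SE 0.38, limma's adjusted p = 0.317), was -0.15 without BM replicate 2 and 1.12, and then called, without BM replicate 1.

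Ltf, the iron-binding lactoferrin of specific granules, was the least abundant member in FL and BM HSCs, though not in the earlier populations. It was at 0.0549 and 0 FPKM in Endo, 0.0915 and 0.0887 in HE, 0.256, 0.359 and 0.597 in the pre-HSC libraries, 2.26 and 1.42 in FL HSCs, with 0.0580 and 0 in BM HSCs. Even in FL HSCs its rank among all gene IDs was 10646 and 11654. The change in FL HSCs against pre-HSCs was 1.01 (SE 0.20, limma's adjusted p = 0.00237), just at the 2-fold limit, and was under it without pre-HSC replicate 1 (0.93) or pre-HSC replicate 2 (0.99). Ltf fell by 1.45 on the log2 scale in BM HSCs against FL HSCs (SE 0.22, limma's adjusted p = 0.0019). With either FL library left out it no longer passed the filter and was not tested.

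All 8 members were higher in FL replicate 1 than in FL replicate 2, as was the FPKM total (751594 against 648708), and with equal totals 5 of 8 were, all but Elane, Prtn3 and Ctsg. In bone marrow 6 of 8 were higher in replicate 1 than in replicate 2, with or without equal totals. Across the 11 libraries the Pearson correlation of log2(FPKM + 1) between pairs of members ran from 0.637 (Prtn3 and Ltf) to 0.979 (Elane and Ctsg). It was 0.970 for S100a8 and S100a9 and 0.808 for the neighbors Elane and Prtn3. These values describe 11 libraries that share 5 populations, in which the FL libraries set much of the range.

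The genes next to the members had other levels. Cfd, which follows Elane at a distance of 2637 bases, is listed at 0 in all 11 libraries. Ptbp1, before Prtn3, was high throughout, at 287 to 511 FPKM. Lpo, the peroxidase gene 2015 bases beyond Mpo, stayed under 0.1 FPKM, and of the neighbors of Ctsg, the protease genes Mcpt8 and Gzme, neither exceeded 0.175 FPKM. S100a7a and Pglyrp4, on the outer sides of S100a8 and S100a9, were at most at 0.171 FPKM. Around Ltf and Camp, the chemokine receptor-like Ccrl2 was highest in pre-HSCs, at 16.8, 4.95 and 38.7 FPKM, and Nme6 and Cdc25a were expressed in all libraries at 13.5 FPKM or more. Both genes beside Camp were called lower in BM HSCs than in FL HSCs, as Camp was, with log2 changes of -1.46 for Nme6 (limma's adjusted p = 0.00242) and -1.08 for Cdc25a (limma's adjusted p = 0.00121). Gm10030, before Ltf, was called higher in pre-HSCs than in HE. Bzrap1, before Mpo, was called in no comparison.

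Overlapping genes limit 2 of the members, since none of the sources used here says whether reads were counted by strand. Gm11505 overlaps Mpo on the opposite strand, and was at 1.91 to 3.82 FPKM in the pre-HSC libraries, 12.7 and 16.4 in FL HSCs, with 1.61 and 0.0483 in BM HSCs. BC005764 overlaps the annotated 5′ end of Prtn3 on the opposite strand, and was at 7.13 to 16.4 FPKM in Endo and HE, 13.03 to 15.8 in the pre-HSC libraries, 22.6 and 28.6 in FL HSCs, with 31.6 and 24.1 in BM HSCs. Their part in the values of Mpo and Prtn3 was not tested.

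Other azurophil genes behaved less uniformly. Of 10 tested genes of a list of azurophil granule and lysozyme genes, 4 rose and 1 fell in FL HSCs against pre-HSCs (11.1% and 13.9% of all tested genes), and the median change was 0.22. In BM HSCs against FL HSCs 2 rose and 2 fell (5.99% and 4.07% of all tested genes). Ms4a3, a membrane protein gene of granulocyte and monocyte progenitors, was at 0, 0.638 and 0.782 FPKM in the pre-HSC libraries, 9.90 and 10.9 in FL HSCs, with 2.31 and 1.21 in BM HSCs, and it fell by 2.07 on the log2 scale in BM HSCs against FL HSCs (SE 0.31, limma's adjusted p = 0.00162). Ctsc, the protease that activates elastase, proteinase 3 and cathepsin G, had already risen by 4.29 on the log2 scale in pre-HSCs against HE (SE 0.44, limma's adjusted p = 0.00028), and so had the lysozyme gene Lyz2 with 5.27 (SE 0.39, limma's adjusted p = 6.539e-05). Both are also expressed by macrophages, whose markers are given below. Srgn, the proteoglycan that packs granule proteases, was highest in bone marrow, at 835 and 964 FPKM in BM HSCs, against 421 and 422 in FL HSCs (log2 change 1.09, SE 0.23, limma's adjusted p = 0.00941).

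Apart from Pglyrp1, genes of a list of specific and gelatinase granule genes were at most at 10.4 FPKM, the level of Cybb in pre-HSC replicate 3. Of 9 tested genes of the list, 5 rose and 2 fell in FL HSCs against pre-HSCs (11.1% and 13.9% of all tested genes), with a median change of 1.29. In BM HSCs against FL HSCs 3 fell and none rose (4.07% and 5.99%), with a median of -1.06. The 3 were Hp, Fcnb and Olfm4, which passed the filter through the FL HSCs alone. Their calls in both comparisons thus depend on the population in which they are high. Fcnb, a ficolin of neutrophil precursors, was at 0.132 and 0.205 FPKM in BM HSCs, against 8.81 and 8.23 in FL HSCs, and fell by 3.03 on the log2 scale (SE 0.20, limma's adjusted p = 2.302e-05). Hp, haptoglobin, was at 0.111 and 0 FPKM in BM HSCs, against 5.71 and 5.74 in FL HSCs. Pglyrp1, a peptidoglycan-binding protein, was at 8.28 and 19.4 FPKM in BM HSCs, against 20.6 and 27.9 in FL HSCs. Cybb, the oxidase subunit that phagocytes share, fell by 1.41 on the log2 scale in FL HSCs against pre-HSCs (SE 0.47, limma's adjusted p = 0.0316). Among late granule genes, Mmp8 is listed at 0 in the FL and BM libraries, and Lcn2 was at 4.13 and 0.314 FPKM in FL HSCs.

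The list of protease inhibitors holds genes against serine and against cysteine proteases. Of 11 tested inhibitor genes, 6 rose and 1 fell in FL HSCs against pre-HSCs (11.1% and 13.9% of all tested genes), and 2 rose and 4 fell in BM HSCs against FL HSCs (5.99% and 4.07%). The 4 that fell were the stefins Stfa1, Stfa3, Stfa2l1 and BC100530, which inhibit cysteine proteases. Stfa3 and Stfa2l1 passed the filter through the FL HSCs alone. Outside the FL HSCs, Stfa1 reached the filter level only in pre-HSC replicate 2 (1.53 FPKM) and BC100530 only in pre-HSC replicate 3 (1.28 FPKM). All 4 could thus be tested only because of the FL libraries, in which they are high. Stfa1 was at 0 and 0.126 FPKM in BM HSCs, against 59.1 and 30.7 in FL HSCs, and BC100530 was listed at 0 in BM HSCs, against 33.9 and 25.9 in FL HSCs. These are near-identical copies whose reads the counting could split, so the single values are uncertain. Serpinb1a, which inhibits elastase, proteinase 3 and cathepsin G, was at 21.5 and 29.2 FPKM in BM HSCs, against 12.3 and 9.16 in FL HSCs, a log2 change of 1.17 (SE 0.27, limma's adjusted p = 0.0134). Serpina3g rose by 1.82 on the log2 scale in the same comparison (SE 0.23, limma's adjusted p = 0.000808), to 255 and 205 FPKM.

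**Figure D4:**
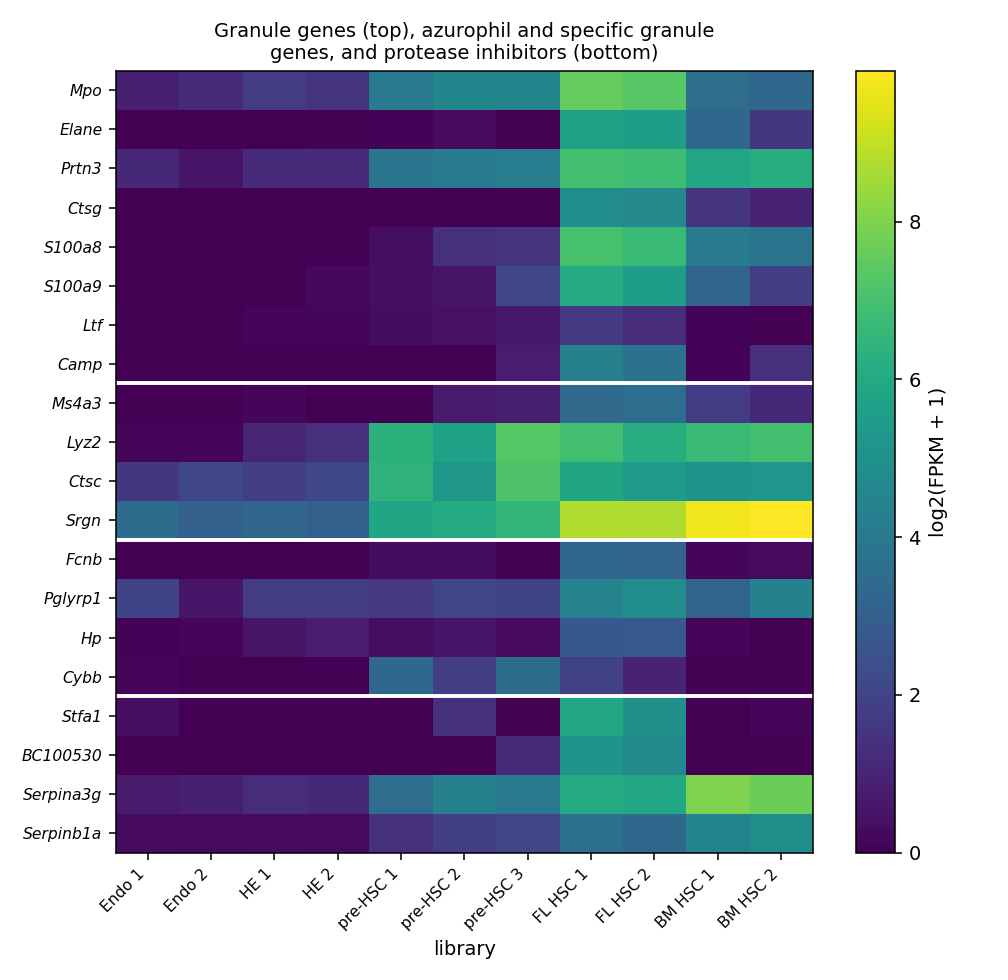
Color gives the level on the log2(FPKM + 1) scale of the 8 granule genes (top block), 4 azurophil, 4 specific granule and 4 inhibitor genes (blocks below) in each library (columns, by population). The 8 genes, Ms4a3, Fcnb, Hp, Stfa1 and BC100530 are brightest in the FL columns, whereas Srgn, Serpina3g and Serpinb1a are brightest in the BM columns.

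Among 13 tested transcription factor genes of granulocyte development, 5 rose and 4 fell in FL HSCs against pre-HSCs (11.1% and 13.9% of all tested genes), with a median change of -0.31. In BM HSCs against FL HSCs 2 rose and 3 fell (5.99% and 4.07%), with a median of 0.28. Klf4, a factor of monocyte differentiation, fell by 4.67 on the log2 scale in FL HSCs against pre-HSCs (SE 0.56, limma's adjusted p = 9.42e-05), and the immediate early gene Egr1 fell by 4.09 (SE 0.73, limma's adjusted p = 0.00129). Both moved against the members at this step. Myb rose at the first of these steps by 2.74 (SE 0.25, limma's adjusted p = 1.788e-05) and was at 162 and 139 FPKM in BM HSCs, against 113 and 134 in FL HSCs. Cebpd fell by 1.995 on the log2 scale in FL HSCs against pre-HSCs (SE 0.27, limma's adjusted p = 0.000203) and fell by 1.94 in BM HSCs against FL HSCs (SE 0.29, limma's adjusted p = 0.00183). Cebpe and Gfi1, which act in granulocyte precursors, were picked after their values were seen, and Cebpe passed the filter through the FL HSCs alone. Cebpe was at 0.638 and 0 FPKM in BM HSCs, against 4.18 and 5.11 in FL HSCs, and Gfi1 at 10.4 and 3.53 in BM HSCs, against 45.2 and 69.4 in FL HSCs. The receptors for myeloid cytokines had risen earlier, with 8 of 9 tested genes higher in pre-HSCs than in HE (6.98% of all tested genes). Csf1r, the receptor for the macrophage growth factor, had the largest change among them, 5.03 on the log2 scale (SE 0.78, limma's adjusted p = 0.00206). It then fell by 2.38 in FL HSCs against pre-HSCs (SE 0.78, limma's adjusted p = 0.0287) and fell by 3.67 in BM HSCs against FL HSCs (SE 0.85, limma's adjusted p = 0.014). Csf3r, the receptor for the granulocyte growth factor G-CSF, was at 9.18, 8.26 and 12.7 FPKM in pre-HSCs, against 1.43 and 1.16 in HE (log2 change 2.25, SE 0.21, limma's adjusted p = 0.000159), and at 17.1 and 12.7 in BM HSCs, against 18.4 and 19.3 in FL HSCs.

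Markers of some other cell types moved with the members, and others did not. In FL HSCs against pre-HSCs, 4 of 11 tested megakaryocyte and platelet genes rose and 2 fell (11.1% and 13.9% of all tested genes). In BM HSCs against FL HSCs 7 rose and none fell (5.99% and 4.07%). Of 13 macrophage genes, 6 fell at the first of these steps and 7 at the second, and none rose. Of 9 tested cytosolic S100 and annexin genes, 1 rose and 2 fell, then 3 rose and 1 fell. The summed FPKM of 15 genes of eosinophil, basophil and mast cell granules was 0.43 and 0.26 in Endo, 1.01 and 0.98 in HE, 2.88, 2.34 and 10.9 in the pre-HSC libraries, 91.8 and 35.9 in FL HSCs, with 2.43 and 2.96 in BM HSCs. Of its 9 tested genes, 7 rose in FL HSCs against pre-HSCs (11.1% of all tested genes) and 7 fell in BM HSCs against FL HSCs (4.07%). All of these but Hdc, namely Prg2, Prg3, Epx, Ear1, Cma1 and Tpsb2, passed the filter through the FL HSCs alone. Their place among the tested genes thus depends on the population in which they are high, and the shares of all tested genes are no even yardstick for them. Prg2, the eosinophil major basic protein, was at 49.4 and 13.9 FPKM in FL HSCs, the eosinophil peroxidase Epx at 3.79 and 2.23, and Ear1 at 10.9 and 3.15, all higher in FL replicate 1. Tpsab1 and Gzmb are listed at 0 in both FL libraries.

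Erythroid genes changed at the same steps. Of 12 tested genes, 7 rose and 1 fell in FL HSCs against pre-HSCs (11.1% and 13.9% of all tested genes), and 8 fell and none rose in BM HSCs against FL HSCs (4.07% and 5.99%). The summed FPKM of the list was 629 and 674 in Endo, 680 and 872 in HE, 111, 165 and 148 in the pre-HSC libraries, 624 and 447 in FL HSCs, with 470 and 706 in BM HSCs. The sum was thus lowest in pre-HSCs, and unlike that of the members it was also high in Endo and HE. Different genes made up the sum in different populations. Hba-a1 had 393 to 559 FPKM in Endo and HE, whereas Car2 had 264 and 260 in FL HSCs, with 409 and 569 in BM HSCs. Klf1, the transcription factor of red cell development, was at 0.837, 0.757 and 0.873 FPKM in the pre-HSC libraries, 107 and 66.6 in FL HSCs, with 5.71 and 11.004 in BM HSCs. Klf1 fell by 3.25 on the log2 scale in BM HSCs against FL HSCs (SE 0.40, limma's adjusted p = 0.000655). Hba-a1, an alpha globin gene, was at 43.3, 71.2 and 59.7 FPKM in the pre-HSC libraries, 68.7 and 15.01 in FL HSCs, with 0 and 0.195 in BM HSCs. The part of erythroid cells in the members' levels was not tested.

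A list of 15 markers of mature neutrophils, not all of them surface genes, had summed FPKM of 25.1 to 114 in the pre-HSC libraries. The sums were 58.3 and 41.9 in FL HSCs, with 22.5 and 27.2 in BM HSCs. Fcgr3 of this list was alone at 48.2, 15.2 and 85.4 FPKM in the pre-HSC libraries. It was at 13.5 and 2.87 in FL HSCs, with 0.416 and 0.267 in BM HSCs. The defining Ly6g, Retnlg and Mmp8 are listed at 0 in the FL and BM libraries. Ly6g is part of what the Gr-1 antibody of the sort recognizes. The sum of 13 macrophage markers was highest in pre-HSC replicate 3 and differed between replicates. It was 34.7 FPKM or less in Endo, 43.5 or less in HE, 856, 297 and 1752 in the pre-HSC libraries, 440 and 64.4 in FL HSCs, with 8.74 and 7.13 in BM HSCs. The library with the larger macrophage sum also had the larger members' sum in FL HSCs, 609 against 504. As a share of the FPKM total of each library, these sums were 0.0811% and 0.0778%. Among the pre-HSC libraries, 5 of 8 members were highest in replicate 3. Mpo and Elane were highest in replicate 2, which had the lowest macrophage sum of the pre-HSC libraries. With FL replicate 1 and pre-HSC replicate 3 left out together, the libraries of their populations with the most macrophage RNA, 7 members were higher in FL HSCs than in pre-HSCs and 6 lower in BM HSCs than in FL HSCs, with Ltf untested, and S100a8 was no longer called in pre-HSCs against HE (log2 change 0.87). Pre-HSC replicate 1, with a macrophage sum of 856, remained in that fit. The part of other cells in the members' levels was not tested.

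**Figure D5:**
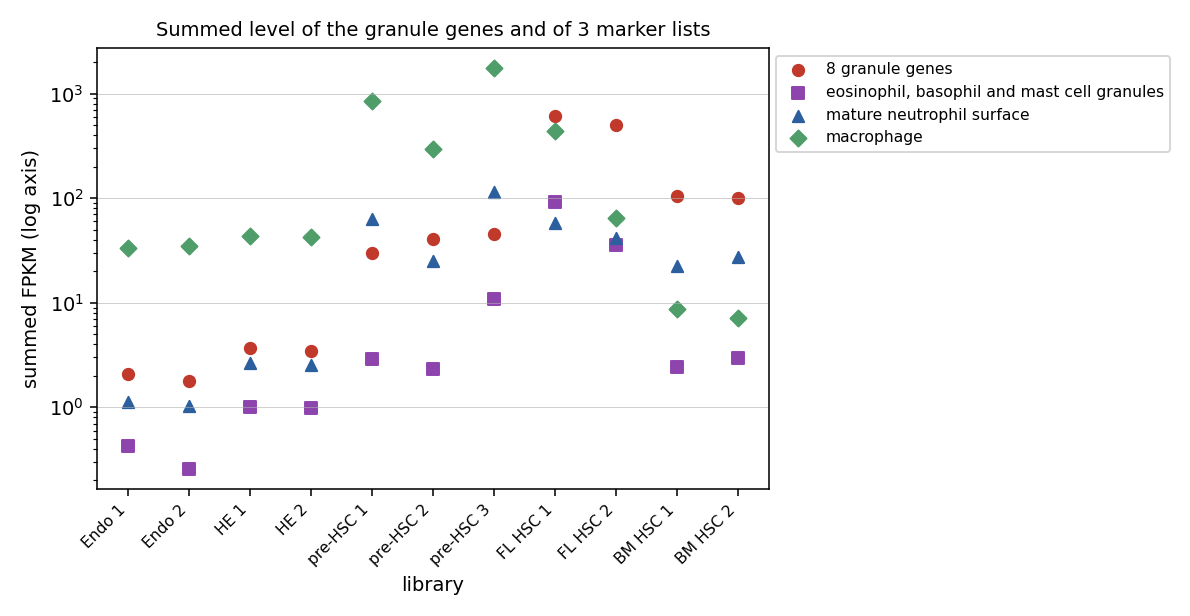
Summed FPKM (vertical axis, log scale) of the 8 granule genes and of 3 marker lists in each library (horizontal axis, by population). The granule genes and the eosinophil, basophil and mast cell list are highest in the FL libraries, at 609 and 504 and at 91.8 and 35.9 FPKM, while the macrophage list is highest in pre-HSC replicate 3, at 1752 FPKM.

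Transcripts of the sort markers followed the gates in part. Kit was at 104 and 130 FPKM in FL HSCs, with 195 and 182 in BM HSCs. Ly6a (Sca-1), for which both HSC sorts selected, was at 3.90 and 9.99 in FL HSCs, with 32.3 and 43.2 in BM HSCs. It was at 3.57 to 7.09 in pre-HSCs. Cd34, against which BM HSCs were selected by the sort table, was still at 80.6 and 86.0 FPKM in BM HSCs, against 125 and 116 in FL HSCs. Itga2b (CD41), against which Endo and HE were selected, was at 3.88 to 6.80 FPKM in them. Ptprc (CD45) was under 0.1 FPKM in Endo and HE. Slamf1 (CD150) was at 31.8 and 29.4 FPKM in BM HSCs, against 13.001 and 16.8 in FL HSCs. Cd48, against which both HSC sorts selected, was at 5.01 and 7.72 FPKM in BM HSCs, against 35.9 and 16.6 in FL HSCs, again higher in FL replicate 1. Itgam (CD11b), a target of the lineage cocktail, was at 1.32 and 1.32 FPKM in BM HSCs, against 3.27 and 4.49 in FL HSCs. Its level in pre-HSCs, 4.78, 2.32 and 7.99 FPKM, was in the same range.

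Among 11445 tested genes with a mean of at least 5 FPKM in some population, those whose log2(FPKM + 1) correlated best with each member over the 11 libraries differed between members. For Prtn3 they were Apbb1ip, Was and Btk, genes of blood cell signaling and actin control, with Pearson r of 0.992 to 0.993. Was, the Wiskott-Aldrich syndrome gene, was at 80.8 and 92.9 FPKM in BM HSCs, against 121 and 97.0 in FL HSCs. For Mpo they were Ssbp3, Eif4a-ps4 and Ass1 (r of 0.964 to 0.974), and for Elane Vrk1, Sh2d4a and Slbp (0.977 to 0.989). Ctsg was closest to Atp7b, Slc26a1 and Vrk1 (0.979 to 0.994), S100a8 to Paics, Ms4a3 and Exoc8 (0.980 to 0.981) and S100a9 to Ms4a3, Rpa1 and Slbp (0.964 to 0.983). Ltf was closest to Uba2, Cd5l and Ston2 (0.965 to 0.975) and Camp to Tspo2, Prss50 and Mylk3 (0.979 to 0.983). Ms4a3 was the one gene of the granule lists among these. Cd5l, a macrophage product, was at 90.7 FPKM in FL replicate 1 and 13.6 in replicate 2. With 11 libraries in 5 populations, the FL libraries set much of the range of these correlations, which are a description.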

How the data were processed

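RNA was sequenced in 11 libraries of 5 populations. Poly(A) libraries were aligned by the authors to mm9 with TopHat, keeping uniquely mapped reads with few mismatches, and Ensembl gene models. Cufflinks, featureCounts, Subread and edgeR stand in the submitters' processing notes too. Neither versions nor the tool behind the FPKM are named, being not given in the sources used here. In all, the authors deposited 1 table of FPKM per gene and library. Of 37820 gene IDs, 37038 (97.9%) were found in GENCODE M1 on NCBIM37, which gave symbols and positions, counted from 1. Depth is unknown: the commonest ratio of low values between replicates was 0.899 to 1.29, so depth within a population was similar, but reads were not recovered. No counting interval is given.

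Log2(FPKM + 1) of 14708 genes with at least 1 FPKM in at least 2 libraries was analysed in R 4.3.3 by limma 3.58.1 (lmFit, eBayes with trend). The model had population as its factor over the 11 libraries together, and Benjamini-Hochberg adjustment covered all tested genes. Populations of 2 libraries share their spread with the others. The paper calls the libraries biological replicates but gives no litter or sort day for their numbers. Whether equal numbers pair libraries is not known. Of 20 equally numbered pairs, 8 had deviations correlated above 0.1 (lowest -0.155, highest 0.156), with 0.115 for Endo and HE. Populations of 2 libraries give the same value for both numbers, so the 20 are not independent. The paper gives the same number of dissected embryos for Endo and HE. A pairing of these by design is possible, and the main model left it out. Authors' tests used counts with edgeR, which FPKM do not allow. The fit was tested on simulated data. Alternatives were other pseudocounts (0.1, 0.5), filters and scalings, an adjusted p under 0.01, no F test, the replicate number as a block, only both populations compared, and each library left out. Leaving out FL replicate 1 with pre-HSC replicate 3, and crossing the BM numbers, were chosen after seeing the data.

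The members and lists were chosen with earlier results of these data known. Named were the members, genes from the 4 per list with the largest called change in any comparison (not all of them are given), sort markers, nearest coding genes, and the 3 genes most correlated with each member; markers listed at 0, Lcn2, Stfa3, Stfa2l1, Cebpe, Gfi1, Prpf8 and the overlapping genes were added after values were seen. Some list genes were not analysed here. Tables were made with pandas 2.3.3 and numpy 2.4.6, and plots with matplotlib 3.10.9, under Python 3.11.15.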

Additional observations from a re-analysis of the deposited data

How the results depend on the processing

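Over all alternatives, 0 members were called in HE against Endo, 2 to 3 in pre-HSCs against HE, 7 to 8 in FL HSCs against pre-HSCs, 6 to 8 in BM HSCs against FL HSCs and 3 to 7 in BM HSCs against pre-HSCs, and no called change turned its direction. With single libraries left out the counts were 0, 2 to 3, 7 to 8, 6 to 8 and 4 to 5. With only BM HSCs and pre-HSCs in the fit, 3 members were called between them instead of 5, since Ctsg then fell under the filter and S100a9 had an adjusted p of 0.093. S100a8 in pre-HSCs against HE was also lost with no filter (adjusted p = 0.122), quantile normalization (0.066), only both populations (0.068) and at an adjusted p limit of 0.01. Ltf in FL HSCs against pre-HSCs was at 0.90, under 2-fold, with equal totals. Mpo in BM HSCs against pre-HSCs was called lower with a pseudocount of 0.1 (-1.02), quantile normalization (-1.14) and equal totals (-1.07), and Ltf with a pseudocount of 0.1 (-1.95).

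The replicate number as a block gave 0, 2, 8, 7 and 5 members called in the same order of comparisons, and lost S100a8 in pre-HSCs against HE (log2 change 0.87). Because the deviations of equally numbered FL and BM libraries were correlated at -0.155, a block with the BM numbers crossed was added, with 0, 2, 8, 7 and 5 called. Over all tested genes, called genes numbered 19 in HE against Endo and 1 to 33 under the alternatives, so that their share is unstable. They numbered 1665 in pre-HSCs against HE, 965 with no filter and 983 without HE replicate 1, and 1480 in BM HSCs against FL HSCs, 910 with no filter and 981 without FL replicate 1. Genes at 0 in all libraries enter the fit when no filter is used. With 2 libraries in most populations, a single library can decide a call near the limit, and the depth behind low values such as those of Ltf is unknown.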
